A study of Mus musculus with 3 samples.

Results

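The class I pathway of antigen presentation was described through 9 of the 31053 genes counted in these libraries: the class I heavy chains *H2-K1*, *H2-D1*, *H2-Q4*, *H2-Q6*, *H2-Q7* and *H2-T23*, the light chain *B2m* and the peptide transporter subunits *Tap1* and *Tap2*. They were chosen by name, with earlier results of these data known, and all 9 had counts in each library. Cells were dissociated from the limbal and angle region of the eyes of mice aged 6 weeks and counted in 3 droplet libraries, each a pool of 2 to 3 mice, with both sexes pooled per the labels. Both control libraries were *Angpt1* flox/flox, and the single *Angpt1*ΔNC library was *Angpt1* flox/flox;Wnt1Cre+. All mice thus carried the floxed allele, and 1 pool alone carried the Cre, which the *Wnt1* promoter drives in the neural crest. The study saw recombination in the trabecular meshwork and sclera, and not in endothelium, retinal pigment epithelium or ciliary body. Limbal and corneal epithelium and blood cells were not named there. The strain is given as mixed, after 2 generations of crossing to albino ICR mice. The library, not the cell, is the replicate.

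A class I molecule is a heavy chain paired with β2-microglobulin and loaded with a peptide. Peptides cut by the proteasome, in part by its interferon-inducible subunits, are pumped into the endoplasmic reticulum by the TAP1/TAP2 transporter, and the loaded complex is shown at the surface to CD8 T cells. *H2-K1* and *H2-D1* encode the classical chains K and D. *H2-Q4*, *H2-Q6*, *H2-Q7* and *H2-T23* encode non-classical chains of the Q and T regions, and the product of *H2-T23*, Qa-1, is a ligand of NKG2 receptors of natural killer cells. Interferons raise the transcription of nearly all of these genes, and parts of the anterior segment of the eye are known for low class I display.

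Values are given throughout in the order control replicate 1, control replicate 2, *Angpt1*ΔNC. The libraries held 9076, 10160 and 6772 kept cells, with a median of 6329.5, 6393.5 and 7444 unique molecular identifiers (UMIs) per cell. Between 13 and 25 cell barcodes were shared by any pair of libraries. The deleted gene was nearly absent from *Angpt1*ΔNC, with *Angpt1* at 0.391 CPM against 37.8 and 39.3 in the controls. CPM are UMIs scaled to a fixed total, without other factors. For *Angpt1* the total was that of all kept cells of the library. For a value given by class it was that of the cells of that class in the library. The pools differed in sex, since *Xist* was found in 58.7% of *Angpt1*ΔNC cells and in 0.0331% and 0.0197% of the cells of control replicates 1 and 2. Genotype, sex of the pool and library therefore cannot be told apart, and male-typed cells (a Y-linked UMI and no *Xist* UMI) were also compared alone. The deposited cluster labels were grouped into classes. Endothelial cells were Schlemm's canal, lymphatic and the labels EC2, EC3 and EC4. The class called stromal cells held the 11 labels that start with TM, from the trabecular meshwork and neighbouring tissue. Of these the study named TM1 keratinocytes and TM2 corneal endothelium, so the class is not stroma alone. Epithelial cells were clusters 4 and 5 (limbus and cornea), and immune cells were clusters 22 to 25. Their defining markers held, with the 6 endothelial markers summing to between 60.9 and 69.8 UMIs per 10,000 in endothelial cells, and the 6 immune markers to between 63.8 and 69.8 in immune cells.

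The classical heavy chains were highest in endothelial and immune cells and lowest in epithelial cells. A level is the mean over cells of UMIs per 10,000 UMIs of the cell. *H2-K1* was at 22.3, 23.3 and 23.3 in endothelial cells and at 10.4, 10.3 and 5.36 in stromal cells. The endothelial values did not overlap the stromal ones, and the difference was 2.14-fold, 2.26-fold and 4.35-fold. Epithelial cells held 3.35, 3.60 and 2.68, below every stromal value, and immune cells held 21.5, 25.3 and 18.4, near the endothelial level.

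*H2-D1*, the other classical chain, was at 41.9, 28.0 and 23.3 in endothelial cells, 21.9, 12.7 and 7.34 in stromal cells, 9.20, 6.29 and 3.46 in epithelial cells and 48.1, 31.6 and 23.3 in immune cells. In each of these 4 classes control replicate 1 was highest and *Angpt1*ΔNC lowest, and the lowest endothelial value, 23.3, lay just above the highest stromal value, 21.9. By label, control replicate 1 exceeded control replicate 2 in 33 of the 34 labels with at least 10 cells in each control, with a median ratio of 1.59. For *H2-K1* the controls were closer, with a median ratio of control replicate 1 to control replicate 2 of 0.949. *B2m* was at 12.3, 13.6 and 19.6 in endothelial cells against 6.81, 6.80 and 7.54 in stromal cells and 1.73, 0.959 and 1.35 in epithelial cells, in each case without overlap. Unlike the heavy chains, it was as high in pigmented cells, at 15.8, 18.2 and 19.9.

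The transporter subunits were higher in endothelial than in immune cells. *Tap1* was at 2.42, 1.92 and 3.09 in endothelial cells, 1.22, 0.979 and 0.801 in stromal cells and 0.392, 0.423 and 0.525 in immune cells. The immune level of *Tap1* was 0.162, 0.220 and 0.170 times the endothelial one. *Tap2* was at 1.61, 1.59 and 2.08 in endothelial cells, 0.505, 0.491 and 0.401 in stromal cells and 0.596, 0.505 and 0.325 in immune cells. The *Tap2* levels of endothelial cells were thus 3.19, 3.23 and 5.20 times those of stromal cells.

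Over all 9 genes, 7 had endothelial levels above the stromal levels without overlap of the 3 libraries, with *H2-Q4* and *H2-T23* the exceptions, while 37.0% of the 10079 genes compared did so and 29.0% were lower. The median log2 difference was 1.12 for the class I genes and 0.199 for all genes. Against epithelial cells, 9 of 9 were higher in endothelial cells, where 51.6% of 9657 genes were and 21.3% were lower. Epithelial cells were lower than stromal cells for 5 of 9, a share near the 50.7% of all 9879 genes (24.1% were higher), and for 9 of 9 over the controls alone, where 56.3% of 9866 genes were lower and 31.9% higher. Immune cells were higher than stromal cells for 5 of 9 against 28.2% of 10291 genes, and lower for *H2-Q4* and *Tap1*, against 47.2%. The labels were made from these same cells, so these counts are descriptions without a test.

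**Figure D1:**
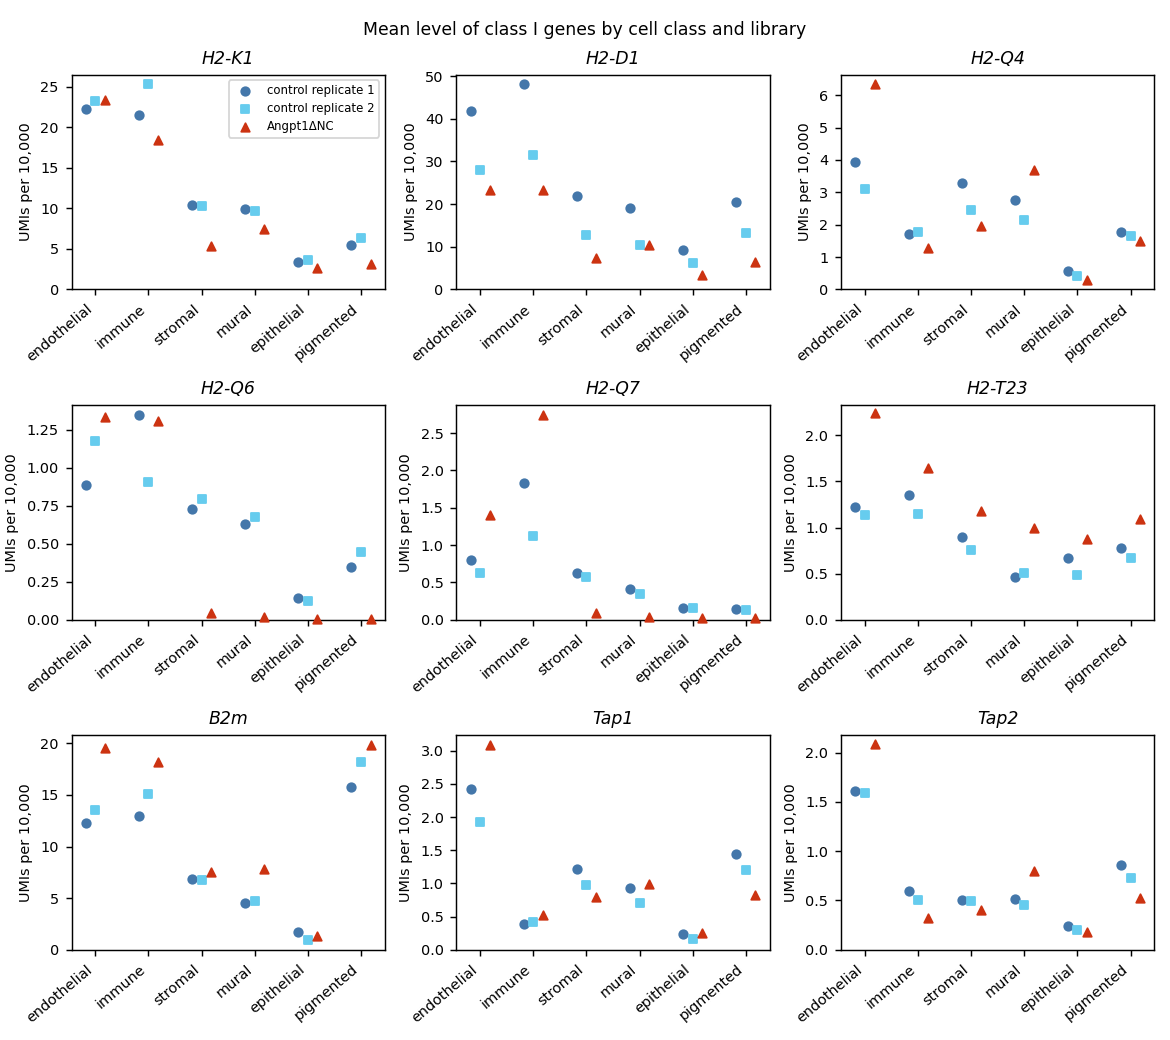
Mean level of each of the 9 genes (UMIs per 10,000, linear axes from 0) in 6 cell classes, 1 point per library, where mural cells are clusters 19 to 21 and pigmented cells are clusters 8 and 9. Endothelial *H2-K1* sits between 22.3 and 23.3 in the 3 libraries, above all stromal points, while *H2-Q6* and *H2-Q7* of *Angpt1*ΔNC lie near 0 in stromal, mural, epithelial and pigmented cells.

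Among the 34 labels, the genes did not share 1 peak. In the mean of the controls *H2-K1* was highest in cluster 22, named B and T cells by the study (26.6 and 29.2), followed by EC2 (27.1 and 23.8), whose values overlapped. *H2-D1* was highest in cluster 23, named monocytes, at 62.2 and 29.5, the controls being far apart. *Tap1*, *Tap2* and *H2-Q6* were highest in EC2, an endothelial label, where *Tap1* held 3.64 and 2.13, *Tap2* 1.84 and 1.49 and *H2-Q6* 2.42 and 0.961. *H2-T23* was highest in Schlemm's canal (1.98 and 1.31) and *H2-Q4* in the stromal label TM8 (6.43 and 4.95). *B2m* was highest in cluster 9, named melanocytes, at 17.9 and 20.4. *H2-Q7* was highest in cluster 18 (2.69 and 1.49), which the study left without a name.

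The lowest label was cluster 1, named retinal pigment epithelium by the study, for 8 of the 9 genes. How many of all genes were lowest there was not counted. *H2-K1* was at 0.743 and 0.925 there and *H2-Q4* at 0.00399 and 0.0210. *H2-Q6* had no UMI in any of its 133, 81 and 17 cells, which allows a share of up to 2.26%, 3.70% and 17.6% of cells with a UMI. *B2m* was lowest in cluster 5, named corneal epithelium, at 1.91 and 0.657. Few neighbours in these orders stood apart. Of the 33 neighbouring pairs of labels, the controls did not overlap in 9 for *B2m*, in 6 for *H2-Q7*, in 5 each for *H2-K1*, *Tap1* and *Tap2*, in 4 for *H2-Q4*, in 3 each for *H2-Q6* and *H2-T23* and in 2 for *H2-D1*.

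Likeness of pattern over these 34 labels was taken as Pearson's r of log2(level + 0.1) in the mean of the controls. The labels share the same libraries, so r is a description. Of all 10877 other genes, *H2-D1* was the most like *H2-K1* (r = 0.92) and *H2-Q6* the most like *H2-Q4* (r = 0.94), the latter falling to 0.47 in *Angpt1*ΔNC. *H2-T23* was most like *H2-D1* (0.90) and *H2-Q7* most like *H2-Q6* (0.86), and *H2-K1* was next most like *H2-Q6* (0.87) and *H2-Q7* (0.86). *Tap1* and *Tap2* had r = 0.88. Outside the 9 genes, *H2-K1* was closest to *Hilpda* (0.84), *Psmb8* (0.84), a subunit of the immunoproteasome, and *Arpc3* (0.84), and *H2-D1* to *Arpc3* (0.87), *Psmb8* (0.85) and *Kctd12* (0.81). *H2-Q4* was closest to *Irf9* (0.90), *Gbp2* (0.89) and *Parp14* (0.89), of which *Irf9* encodes a factor of the interferon response. *Tap1* was closest to *Parp14* (0.92), *Parp9* (0.92) and *Gbp2* (0.92), and *Tap2* to *Znfx1* (0.92), *Parp14* (0.92) and *Pml* (0.91). *H2-Q6* was closest to *Parp14* (0.87), *Isg15* (0.86) and *Litaf* (0.84). *H2-Q7* was closest to *Birc3* (0.77), *Nfkb1* (0.77), which encodes a subunit of NF-κB, and *Kctd12* (0.76). *H2-T23* was closest to *Kctd12* (0.82), *Psmb8* (0.80) and *H2-T22* (0.78), and *B2m* to *Ifnar2* (0.82), an interferon receptor chain, *Gna13* (0.80) and *Bst2* (0.78). In *Angpt1*ΔNC the r of *H2-Q6* with its 3 genes was 0.53, 0.34 and 0.58, and that of *H2-Q7* 0.55, 0.47 and 0.63. For the other members these values lay between 0.62 and 0.96.

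The genotype comparison asked which of these transcripts differed between *Angpt1*ΔNC and control cells of the same class. In stromal cells, *H2-Q6* and *H2-Q7* were nearly absent from *Angpt1*ΔNC. *H2-Q6* was at 0.727 and 0.796 in the controls and 0.0411 in *Angpt1*ΔNC, and *H2-Q7* at 0.628, 0.565 and 0.0944. The controls lay close together, and *Angpt1*ΔNC lay far below both. With UMIs summed per library, *H2-Q6* was lower by a log2 fold change of -4.02 ± 0.21 (SE, adjusted p = 2.5e-05) and *H2-Q7* by -2.48 ± 0.17 (adjusted p = 9.7e-05), by edgeR's quasi-likelihood test with Benjamini-Hochberg adjustment.

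The share of stromal cells with an *H2-Q6* UMI was 26.4% (exact Clopper-Pearson 95% CI 24.8 to 28.1), 30.3% (28.8 to 31.9) and 1.85% (1.30 to 2.55), at median depths of 5913, 6377 and 7494 UMIs. These intervals cover counting error only. After each cell was thinned to 1000 UMIs, the shares were 7.17%, 7.37% and 0.360%. Cluster 1 of the controls, with no *H2-Q6* UMI in 133 and 81 cells at median depths of 17538 and 10444, allows a background share of up to 2.26% and 3.70%, and the 17 cells of *Angpt1*ΔNC are too few to set one. Summed over both genes, 199 UMIs fell in 109 of the 1946 *Angpt1*ΔNC stromal cells, 93 of them in 10 cells and 50 in 1 cell.

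The same difference was seen in epithelial cells. There *H2-Q6* was at 0.144, 0.119 and 0.00445 (log2 fold change -4.99 ± 0.36, adjusted p = 0.00054 by edgeR) and *H2-Q7* at 0.156, 0.149 and 0.0211 (-2.89 ± 0.26, adjusted p = 0.0016). The summed level of both genes was 1.04, 1.02 and 0.0525 in mural cells, 0.482, 0.581 and 0.0190 in pigmented cells, and 2.15, 1.77 and 0.0891 in cluster 17, named stromal by the study. In cluster 18 it was 3.72, 2.58 and 0.154, and in cluster 10, named astrocytes, 1.95, 1.54 and 0.435. In each of these the *Angpt1*ΔNC value lay below both controls.

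Endothelial and immune cells of the same *Angpt1*ΔNC library held both transcripts as classes. The summed level of *H2-Q6* and *H2-Q7* was 1.69, 1.80 and 2.74 in endothelial cells and 3.18, 2.02 and 4.05 in immune cells, with *Angpt1*ΔNC above both controls. Single labels differed, since *H2-Q6* was at 0.674, 1.18 and 0.578 in Schlemm's canal and at 0.294, 0.148 and 0 in cluster 25, which rests on 3, 3 and 0 UMIs. Within *Angpt1*ΔNC the endothelial level of *H2-Q6* was 32.4 times the stromal one, against 1.22 and 1.47 times in the controls, and that of *H2-Q7* 14.9 times against 1.27 and 1.11. In endothelial cells of *Angpt1*ΔNC, *H2-Q6* was at 1.95 in 66 male-typed cells and 0.908 in 122 cells with *Xist* and no Y-linked UMI. *H2-Q7* was at 1.95 and 1.21 in these. Male-typed endothelial cells of the controls held *H2-Q6* at 0.957 and 1.14 and *H2-Q7* at 0.794 and 0.614. The part of sex was not tested. In stromal cells, male-typed cells and cells with *Xist* were both low. In *Angpt1*ΔNC stromal cells, *H2-Q6* was at 0.0356 in male-typed cells and 0.0466 in cells with *Xist* and no Y-linked UMI, and *H2-Q7* at 0.106 and 0.0908.

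**Figure D2:**
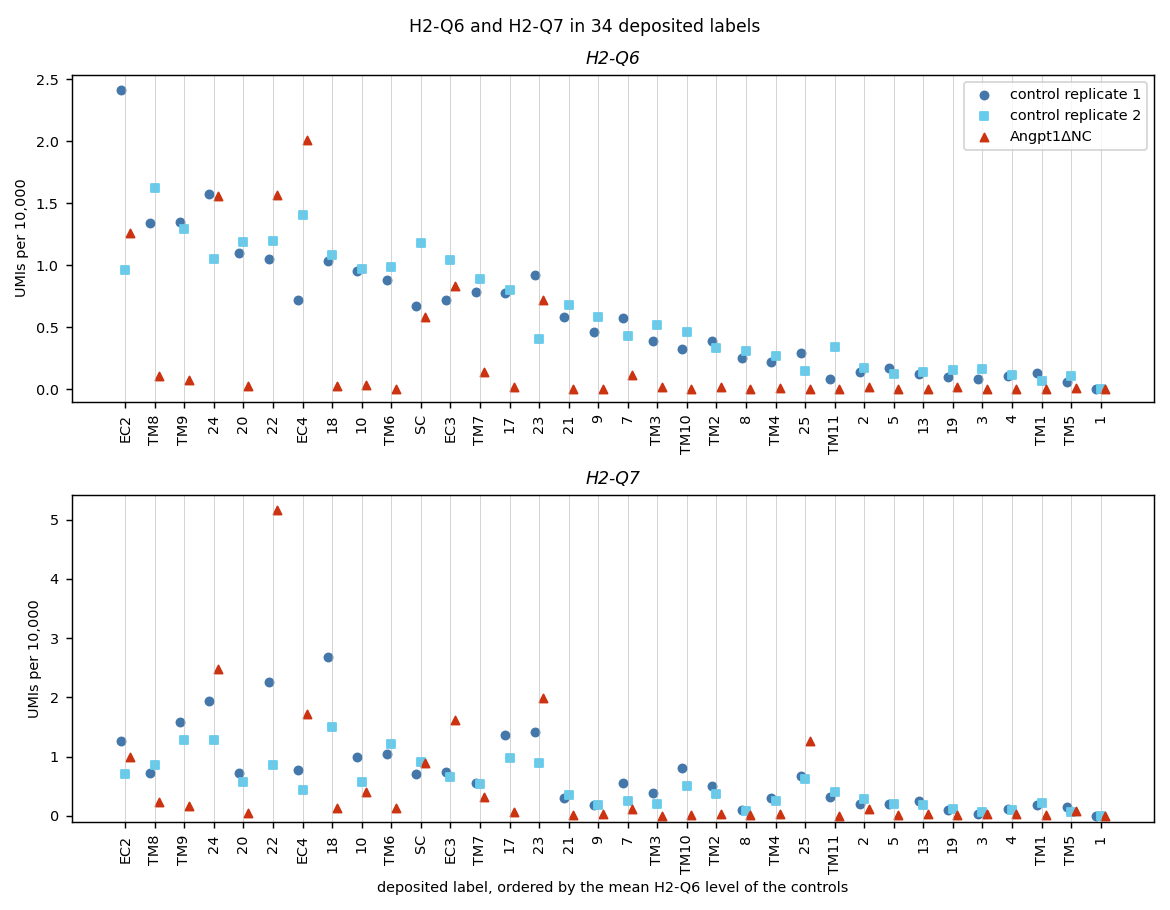
Level of *H2-Q6* (top) and *H2-Q7* (bottom) in UMIs per 10,000 (linear axes) for each of 34 deposited labels and each library, 1 point per library. *Angpt1*ΔNC lies below both controls in 27 labels for *H2-Q6* and 24 for *H2-Q7*, and above both in EC4 and cluster 22 for both genes.

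The 4 heavy-chain promoters printed next are shown because *H2-Q6* and *H2-Q7* were nearly absent from *Angpt1*ΔNC stromal cells, *H2-K1* was lower by less and *H2-Q4* was not called. Each runs from 250 bases before to 50 bases after the RefSeq gene start in GRCm38.p6, read on the gene's strand: chr17:34000298-34000597 (minus strand), chr17:35379367-35379666, chr17:35424600-35424899 and chr17:35438905-35439204 (plus strand). Capitals mark matches on either strand to GGGGATTCCC, the NF-κB type motif as it stands in *H2-K1*, and to TTTCNNTT, a core of interferon response elements, and the motifs do not overlap.
H2-K1: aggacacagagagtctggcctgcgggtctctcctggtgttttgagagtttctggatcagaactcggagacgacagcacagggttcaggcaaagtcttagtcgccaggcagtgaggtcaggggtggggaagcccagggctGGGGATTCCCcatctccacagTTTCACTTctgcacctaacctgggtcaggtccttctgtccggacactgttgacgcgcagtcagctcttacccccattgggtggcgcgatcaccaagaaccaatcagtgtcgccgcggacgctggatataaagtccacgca
H2-Q4: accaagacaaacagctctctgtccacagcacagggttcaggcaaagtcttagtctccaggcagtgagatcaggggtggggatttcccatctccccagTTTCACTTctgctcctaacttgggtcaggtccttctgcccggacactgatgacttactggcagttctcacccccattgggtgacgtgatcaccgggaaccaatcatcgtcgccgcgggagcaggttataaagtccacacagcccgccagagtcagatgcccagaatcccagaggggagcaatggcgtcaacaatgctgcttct
H2-Q6: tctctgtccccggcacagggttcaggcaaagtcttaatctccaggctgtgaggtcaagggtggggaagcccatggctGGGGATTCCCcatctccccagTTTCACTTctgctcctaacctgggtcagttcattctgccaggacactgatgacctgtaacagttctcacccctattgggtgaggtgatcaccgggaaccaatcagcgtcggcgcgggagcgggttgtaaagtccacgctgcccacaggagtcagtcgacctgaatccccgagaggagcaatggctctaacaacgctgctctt
H2-Q7: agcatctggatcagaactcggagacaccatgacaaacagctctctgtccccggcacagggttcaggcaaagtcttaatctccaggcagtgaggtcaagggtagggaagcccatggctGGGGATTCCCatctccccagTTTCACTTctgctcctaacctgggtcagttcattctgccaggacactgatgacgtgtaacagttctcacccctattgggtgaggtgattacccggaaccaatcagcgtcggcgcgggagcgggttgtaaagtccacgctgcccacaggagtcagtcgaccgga

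The *H2-Q6* and *H2-Q7* promoters were 97.3% identical over 261 aligned bases, and *H2-Q4* and *H2-Q6* 82.6% over 298. The exact string GGGGATTCCC was found in *H2-K1*, *H2-D1*, *H2-Q6* and *H2-Q7* and in 0.107% of 32851 RefSeq promoters of this length. *H2-Q4* lacks this string but holds the similar GGGATTTCCC shortly before its TTTCACTT, left in small letters above. Looser forms of the motif were not counted, so *H2-Q4* cannot be said to lack a site of this type. TTTCNNTT was found in 7 of the 8 promoters matched, all but *Tap1*, and in 23.9% of all promoters. The core TGACG had no match in *H2-Q6* and *H2-T23* and at least 1 in the other promoters, against 20.8% of all promoters, and CCAAT was found in all 8, against 37.4%. The *Tap2* promoter was not analysed here.

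*H2-Q6* lies on chromosome 17 from 35424850 to 35430055 and *H2-Q7* from 35439155 to 35443773 (GRCm38, GENCODE M21). *H2-Q4* (35379617 to 35385290), *H2-D1* (35262730 to 35267499), *H2-K1* (33996017 to 34000347), *H2-T23* (36029773 to 36032855), *Tap1* (34187553 to 34197225) and *Tap2* (34203527 to 34216321) lie on the same chromosome, and *B2m* on chromosome 2 (122147686 to 122153083). Stretches shared with other genes make some of these counts uncertain. Stretches of 90 bases were taken from the last 500 bases of the transcripts, from which droplet reads come. For an *H2-Q6* transcript of 981 bases, 42.8% also occurred in transcripts of other genes, among them *H2-Q7* and *H2-Q10*. For its transcript of 2085 bases the share was 10.9%, in genes such as *H2-Q4*, *Cd59b* and *Efr3a*. The share was 9.49% for *H2-Q4*, 13.4% for *H2-T23*, up to 6.08% for *H2-Q7*, up to 0.487% for *H2-K1* and 0% for *H2-D1*, *B2m*, *Tap1* and *Tap2*. That of *H2-Q4* lay in genes such as *Reep3* and *Olfr1238*, and that of *H2-T23* in *H2-T-ps*, *Hook2* and *Rab33b*. How alleles of a mixed strain are counted on the reference genome was not tested.

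Of the 9 genes, 4 were called in *Angpt1*ΔNC stromal cells, all lower, where 5.52% of 13942 genes were called lower and 3.46% higher. Besides *H2-Q6* and *H2-Q7* these were the classical chains. *H2-K1* changed by -0.88 ± 0.15 in log2 (adjusted p = 0.0096 by edgeR), from 916 and 885 to 489 CPM. *H2-D1* changed by -1.14 ± 0.27 (adjusted p = 0.034), from 1971 and 1135 to 698, and lost the call under DESeq2 (adjusted p = 0.41) and with equal numbers of cells of each label (-0.94, adjusted p = 0.076 by edgeR), where *H2-T23* was called instead (0.69). The controls differed more for *H2-D1* than for any other of the 9 genes in stromal cells. *H2-Q4*, *B2m*, *Tap1*, *Tap2* and *H2-T23* were not called, with log2 fold changes from -0.48 for *H2-Q4* to 0.57 for *H2-T23*. In male-typed cells alone, 7 were called, the additions being *H2-Q4* (-0.93), *Tap1* (-0.66) and *H2-T23* (0.59), and calls over all genes were also more frequent, at 1765 of 13427 against 1251 of 13942. The mural markers summed to 7.55, 5.93 and 3.24 UMIs per 10,000 in stromal cells with all 5 detected in each library, and the 6 stromal markers to 224, 246 and 354. Their part in these results was not tested.

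In endothelial cells, 6 of the 9 genes were called in *Angpt1*ΔNC, all higher, against 8.12% of 9660 genes higher and 4.82% lower. *H2-Q7*, at 0.799, 0.630 and 1.40 UMIs per 10,000, was higher by a log2 fold change of 1.27 ± 0.18 (adjusted p = 1.6e-06 by edgeR). *H2-T23*, at 1.22, 1.14 and 2.24, was higher by 1.04 ± 0.17 (adjusted p = 2e-05), and *H2-Q4*, at 356, 301 and 550 CPM, by 0.91 ± 0.15 (adjusted p = 4.3e-05). In these 3 genes *Angpt1*ΔNC lay above both controls. *B2m* was higher by 0.70 ± 0.15 (adjusted p = 0.00073) and *Tap1* by 0.67 ± 0.16 (adjusted p = 0.0026). *H2-Q6* passed narrowly, at 0.53 ± 0.18 (adjusted p = 0.047), and was called in 5 of 8 alternatives. It was not called under library totals alone (0.36, adjusted p = 0.16 by edgeR), without the filter on low counts (adjusted p = 0.054) or under DESeq2 (adjusted p = 0.66), which also did not call *Tap1* (adjusted p = 0.13). Endothelial cells of *Angpt1*ΔNC with *Xist* and no Y-linked UMI held *H2-Q6* at 0.908 UMIs per 10,000, below the male-typed cells of both controls. *H2-K1* (0.16) and *Tap2* (0.40) were not called. *H2-D1* (-0.46, adjusted p = 0.065 by edgeR) was not called either, but was called lower under library totals alone (-0.63, adjusted p = 0.0004), without the filter (adjusted p = 0.037) and without cells that held a *Ptprc* UMI (-0.45, adjusted p = 0.03).

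The endothelial labels did not move as one, though they hold few cells. *H2-Q4* was at 3.79, 3.38 and 7.47 in EC4 and at 3.88, 2.72 and 6.26 in EC3, but at 3.63, 2.71 and 2.37 in Schlemm's canal, of which *Angpt1*ΔNC held 15 cells. *H2-K1* was at 20.6, 24.8 and 30.1 in EC4 and at 18.3, 19.2 and 9.62 in Schlemm's canal. No test was made at this level. With the same number of cells of each label in every library, 7 of the 9 genes were called in endothelial cells, *Tap2* (0.52) being the addition. All 7 were higher, where 641 of 8845 genes were called higher and 366 lower. The 6 stromal markers, all detected, summed to 0.638, 0.922 and 3.75 UMIs per 10,000 in endothelial cells, and the 6 immune markers, of which 6, 5 and 6 were detected, to 0.981, 0.216 and 0.523. The part of these markers in the results was not tested. The T cell and dendritic cell markers were at 0 in endothelial cells of control replicate 2 and *Angpt1*ΔNC. There the B cell markers summed to 0.0369, 0.0278 and 0.00347 UMIs per 10,000 in the 3 libraries. The macrophage markers, all 4 detected, summed to 0.418, 0.0506 and 0.414, and the part of these lists was not tested either. Without cells that held a *Ptprc* UMI, 293, 327 and 208 of the 295, 327 and 209 endothelial cells remained. In these, 7 of the 9 were called, *H2-D1* being the addition and, unlike the others, lower. Over all 9712 genes, 886 were called higher and 521 lower.

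In epithelial cells, *H2-Q6* and *H2-Q7* alone were called, both lower, where 2.91% of 12341 genes were called lower and 2.81% higher. *H2-D1*, at 974, 601 and 360 CPM, had a log2 fold change of -1.02 ± 0.26 (adjusted p = 0.059 by edgeR, 0.0042 by DESeq2). In immune cells 0 of the 9 genes were called by edgeR and 0 by DESeq2, with 6 at an unadjusted p under 0.05 in edgeR, where 2.38% of 10395 genes were called higher and 1.82% lower. *H2-Q7* had the largest difference there, at 0.85 ± 0.24 (adjusted p = 0.078), and its controls differed as well, at 1.83 and 1.12 against 2.74 UMIs per 10,000.

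**Figure D3:**
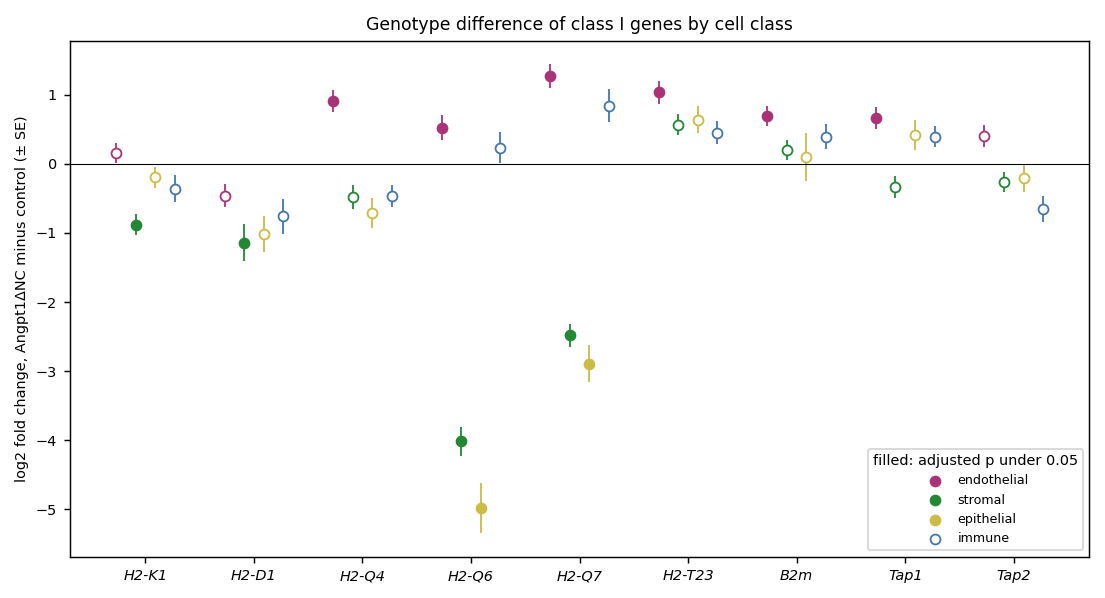
Log2 fold change of *Angpt1*ΔNC over control (± SE derived from edgeR's F statistic) for each gene in 4 cell classes. Filled points mark an adjusted p under 0.05 by edgeR. *H2-Q6* and *H2-Q7* fall to between -2.48 and -4.99 in stromal and epithelial cells, while endothelial *H2-Q7* stands at 1.27.

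The difference between the classes was itself tested, as the interaction of class and genotype over 6 sums with the library as a block. The genotype difference was higher in endothelial than in stromal cells for 8 of the 9 genes, where 3.70% of 13667 genes were called in this direction and 0.805% in the other. It was 4.57 ± 0.21 in log2 for *H2-Q6* and 3.77 ± 0.19 for *H2-Q7* (adjusted p = 1e-05 and 1.5e-05 by edgeR). *H2-Q4* followed at 1.41 ± 0.13, *H2-K1* at 1.06 ± 0.12 and *Tap1* at 1.02 ± 0.14. *Tap2* (0.69), *H2-D1* (0.68) and *B2m* (0.52) passed with adjusted p from 0.015 to 0.041. *H2-T23* was not called (0.49, adjusted p = 0.11). With equal numbers of cells of each label, *B2m* lost its call (adjusted p = 0.091).

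Counted by label, the 9 genes differed in direction. The *Angpt1*ΔNC level lay below both controls in 30 of 34 labels for *H2-K1*, 28 for *H2-D1*, 27 for *H2-Q6* and 24 for *H2-Q7*, where 41.6% of 323554 pairs of label and gene did so. It lay above both in 27 labels for *B2m* and in 26 for *H2-T23*, where 33.8% of all pairs did. The other genes were mixed and nearer to these shares, with 19 labels below and 7 above for *Tap2*, 15 below and 8 above for *H2-Q4*, and 12 below and 15 above for *Tap1*. *H2-K1* was above both controls in EC4 and cluster 1 alone. For *H2-D1*, 27 labels had the order control replicate 1, control replicate 2, *Angpt1*ΔNC, so that the controls also differed from each other in nearly every label. The labels share 3 libraries and are not independent.

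**Figure D4:**
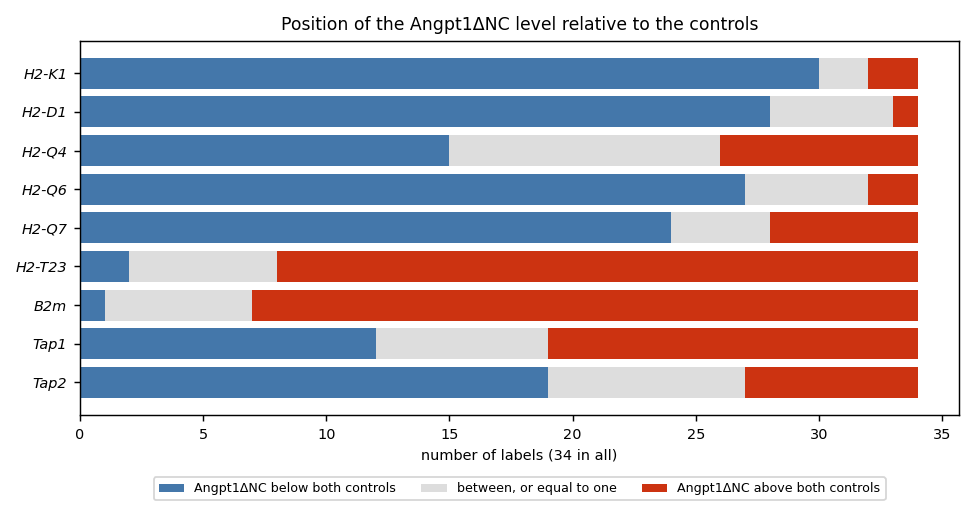
Number of the 34 labels (horizontal axis) in which the *Angpt1*ΔNC level of each gene lay below both controls, between them or level with 1 of them, or above both. *H2-K1* and *H2-D1* are below in 30 and 28 labels, and *B2m* and *H2-T23* above in 27 and 26.

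Genes that supply and load peptides were counted from a list of 12. Of these, 9 were higher in endothelial than in stromal cells without overlap: *Psmb8*, *Psmb9*, *Psmb10*, *Psme1*, *Psme2*, *Tapbp*, *Tapbpl*, *Erap1* and *Nlrc5*, where 37.0% of all genes were higher and 29.0% lower. By genotype, 4 were higher and 1 lower in *Angpt1*ΔNC endothelial cells, where 8.12% of all genes were higher and 4.82% lower, with a median log2 fold change of 0.31 against -0.02 over all genes. *Psmb8* was higher by 0.80 ± 0.15, *Tapbp*, which bridges the transporter to the heavy chain, by 0.85 ± 0.16, *Psmb10*, another immunoproteasome subunit, by 0.56 ± 0.16 and *Nlrc5*, the transactivator of class I genes, by 1.17 ± 0.22. *Pdia3*, an oxidoreductase of the loading complex, was lower in all 4 classes, by -0.72 ± 0.17 in endothelial, -0.84 ± 0.15 in stromal, -0.81 ± 0.16 in epithelial and -0.97 ± 0.19 in immune cells. *Nlrc5* was also higher in stromal cells, close to the threshold (0.80 ± 0.21, adjusted p = 0.0499 by edgeR).

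Of 15 other class I and class I-like heavy chains, 12 were analysed here and between 7 and 9 passed the filter on low counts in each class. *H2-T22*, a T-region chain, was higher, at 55.1, 47.2 and 182 CPM in endothelial cells (2.00 ± 0.17, adjusted p = 5.5e-11 by edgeR). *Fcgrt*, the neonatal Fc receptor, was lower there (-0.88 ± 0.19). *H2-Q10* was lower in epithelial cells (-2.93 ± 0.68), from 2.39 and 1.52 to 0.232 CPM. *H2-Q2* was lower in stromal cells (-7.59 ± 1.81), from 1.91 and 0.700 to 0. Both rest on low counts and lay near the threshold, and the controls of *H2-Q2* were far apart. Of 12 interferon receptors and factors, 3 were higher (*Irf2*, *Irf7*, *Socs1*) and 1 lower (*Ifngr2*) in endothelial cells, against the same 8.12% and 4.82% of all genes. In stromal cells *Irf1*, an interferon-induced transcription factor, was lower (-1.33 ± 0.23), as was *Socs1* (-0.64 ± 0.17), an inhibitor of interferon signalling. *Irf1* was also lower in immune cells (-1.58 ± 0.22).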

How the data were processed

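Single-cell libraries of the mouse iridocorneal angle and limbus were measured, 2 from control and 1 from *Angpt1*ΔNC mice. The authors made the deposited UMI counts with Cell Ranger on build mm10 (2.1.1 in the submitters' processing notes, 3.0.2 in the file header) without normalization. They removed low-quality cells and doublets and deposited natural log integrated values of 3467 genes with a cluster label per kept cell (Seurat 3.1.3). Of the 9 genes these values cover 1 alone, so the labels were used and the log values were not.

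The members, lists and classes were chosen with earlier results of these data known. Levels were means over kept cells of UMIs per 10,000, with Python 3.11.15, numpy 2.4.6, pandas 2.3.3 and scipy 1.17.1. Genes were compared between classes without a test, among those with a mean level of at least 0.05 in either class. For genotype, UMIs were summed per library and class and tested with edgeR 4.0.16 in R 4.3.3 (TMM factors, filterByExpr, quasi-likelihood F-test), called at a Benjamini-Hochberg adjusted p under 0.05 over all genes. With 1 residual degree of freedom, the test takes the lone *Angpt1*ΔNC library to vary like the controls. The SE was derived as the size of the log2 fold change divided by the square root of F. It holds no spread among *Angpt1*ΔNC pools. Nothing says that the control pools came from separate litters. The script was tested on simulated data. DESeq2 1.42.0, other scalings and other sets of cells were alternatives. Genes named are the 9 members, for each the 3 genes with the most like pattern over labels, and genes of 3 lists that passed the test, of which 1 is not reported here. Motifs and identities were read from RefSeq promoters (8 of 9 matched, Biopython 1.88). Kept cells held 76981606, 80346829 and 66484181 UMIs. Figures were drawn with matplotlib 3.10.9.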

Additional observations from a re-analysis of the deposited data

Results flagged for a closer look

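The genotype difference of 8 genes differed between endothelial and stromal cells by the interaction test of edgeR (adjusted p under the threshold over all genes). In log2, the endothelial difference minus the stromal one was 4.57 for *H2-Q6*, 3.77 for *H2-Q7*, 1.41 for *H2-Q4*, 1.06 for *H2-K1*, 1.02 for *Tap1*, 0.69 for *Tap2*, 0.68 for *H2-D1* and 0.52 for *B2m*. All 8 were higher in endothelial cells, in 1 *Angpt1*ΔNC library against 2 controls.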

How the results depend on the processing

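Of 59 counts of genes recomputed under an alternative, 51 stayed within 1.5 times the reported count. In male-typed cells alone, 7 genes were called in stromal cells (1765 of 13427 over all genes) and 1 in immune cells (313 of 9257). Without a filter on low counts, 5 were called in epithelial cells (1814 of 18342) and 3 in immune cells (886 of 17081). Clusters 2 to 5 as epithelium gave 1 call (18 of 12982), and *H2-Q7* lost its call there (-2.29, adjusted p = 0.053 by edgeR). Immune cells without cluster 22 gave 2 (547 of 9883), and library totals alone gave 1 in immune cells (488 of 10395). Leaving out a library gave between 6 and 9 genes without overlap between epithelial and stromal cells, the 9 without *Angpt1*ΔNC. Single genes turned direction 4 times under the tested alternatives, none of them called: *H2-K1* in endothelial cells (-0.0094) and *B2m* in epithelial cells (-0.023) under library totals alone, *B2m* in male-typed epithelial cells (-0.27) and *Tap1* in stromal cells with equal numbers of cells of each label (0.075). The causes were not tested. *H2-Q6* and *H2-Q7* were called in stromal cells under each of 8 tested alternatives.

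Library totals alone moved the median of all genes to -0.19 in endothelial and -0.12 in epithelial cells, and the share of calls that were higher from 62.7% to 35.1% and from 49.2% to 37.5%. Counts of all genes called depended on the setting: 1250 in endothelial cells became 239 with DESeq2, 1251 in stromal cells became 2441 without the filter, 640 with DESeq2, 653 with equal numbers of cells and 2071 without TM1 and TM2, 706 in epithelial cells became 18 in clusters 2 to 5, 1814 without the filter, 341 with library totals, 443 with DESeq2 and 465 in male-typed cells, and 436 in immune cells became 33 with RLE factors, 886 without the filter, 82 with DESeq2 and 153 with equal numbers of cells. Leaving out either control gives no test, and no called gene changed direction. No paired analysis was possible because the groups compared share fewer than 2 replicate numbers.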
